A study of Mus musculus with 6 samples.

Results

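The genes described here are transcriptional targets of p53, the p53 inhibitors Mdm2 and Mdm4, and the BCL2 family with Apaf1, Casp8 and Casp9. They were measured in mouse fetal livers from a Stab2-Cre deletion of Gata4. The genes came from a list of 36 gene symbols matched to the named features of the array. Of these, 34 were measured among 23279 named genes, namely 19 listed as p53 targets with Mdm2 among them, 14 apoptosis regulators and Mdm4. The classes are those of the list, and whether p53 regulates each listed target in these livers was not tested. Trp53 and Bax were not analysed here. Whole livers were dissected at embryonic day 11.5, and total RNA was hybridised to Affymetrix arrays. There were 3 arrays of livers labelled knockout, whose genotype is given as Stab2-Cre;Gata4fl/fl, and 3 of control livers titled Stab2Cre;Gata4 heterozygous. Both came from matings of Stab2-Cretg/wt;Gata4fl/wt with Gata4fl/fl mice, so by their titles the controls also carry the Cre transgene and a floxed allele beside a wild-type one. Stab2 encodes a scavenger receptor of sinusoidal endothelium, and its Cre acts on those cells, whereas the array reads the whole organ. The sources used here do not say how many embryos made up an array, so p-values measure the spread between these arrays.

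The transcription factor p53 is held low in unstressed cells by MDM2, a ubiquitin ligase that p53 itself induces, and by the related inhibitor MDM4. When stress releases it, p53 induces genes that arrest the cell cycle, limit growth and repair damage, and genes that start apoptosis. In the mitochondrial pathway, BH3-only proteins bind and neutralise survival proteins such as BCL2, BCL-xL and MCL1 or activate the pore formers BAX and BAK, after which cytochrome c assembles APAF1 and caspase 9 into the apoptosome. Death receptors of the TNF receptor family instead act through caspase 8, which cleaves the BH3-only protein BID. In the fetal liver, survival of erythroid cells depends on BCL-xL, the product of Bcl2l1.

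The promoters of 3 targets are shown because their genes had the 2 differences that passed the test and because Cdkn1a and Ccng1 were the only members with a full p53 site in the searched window. Each line gives the 250 bases before an annotated start in RefSeq GRCm38.p6, 5′ to 3′ on the gene's strand. Capitals mark a full p53 response element, meaning 2 adjacent p53 consensus decamers that differ from the consensus at no more than 1 of 20 bases.
Ccng1, chr11:40755287-40755536, minus strand: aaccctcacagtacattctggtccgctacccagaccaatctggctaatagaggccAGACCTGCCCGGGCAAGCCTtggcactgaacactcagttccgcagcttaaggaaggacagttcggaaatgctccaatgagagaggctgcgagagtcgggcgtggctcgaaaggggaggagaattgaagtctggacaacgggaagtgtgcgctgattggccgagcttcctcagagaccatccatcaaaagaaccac
Cdkn1a, chr17:29090729-29090978, plus strand, the farther upstream of its 2 annotated starts: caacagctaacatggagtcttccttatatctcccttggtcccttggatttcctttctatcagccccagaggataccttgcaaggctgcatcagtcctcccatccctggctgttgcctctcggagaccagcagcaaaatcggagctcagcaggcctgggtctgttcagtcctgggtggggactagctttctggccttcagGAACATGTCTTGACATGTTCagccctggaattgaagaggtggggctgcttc
Plk2, chr13:110394794-110395043, plus strand: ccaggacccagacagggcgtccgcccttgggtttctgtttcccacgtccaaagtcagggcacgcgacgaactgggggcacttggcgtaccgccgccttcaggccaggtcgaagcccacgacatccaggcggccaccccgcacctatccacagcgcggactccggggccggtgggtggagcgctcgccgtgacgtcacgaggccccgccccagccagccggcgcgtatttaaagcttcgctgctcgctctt
The element of Ccng1 lay 195 to 176 bases before the start and that of Cdkn1a 51 to 32 bases before it. The Plk2 window held neither a full element nor a perfect single decamer, which says only that these letters are not in this window.

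RefSeq windows were available for 28 of the 34 measured members, 40 windows in all. The p53 decamer reads the same on both strands, so a search of 1 strand covers both, and a full element contains its decamers. A full element was found in 2 of the 40 member windows (5%), against 25 of 32841 windows of all genes (0.0761%). A perfect decamer was found in 7 member windows (17.5%), against 2341 of all windows (7.13%). The 7 members were Cdkn1a, Ccng1, Gadd45a, Aen, Sesn1, Mdm2 and Bmf, and their log2 differences, which are given with their roles below, ranged from −0.42 to 0.49 and had both signs. Many members were listed because they are p53 targets, so an excess of p53 sites over all genes is partly built into the list. A sequence match is a description and not evidence of binding.

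All 6 arrays had the same distribution of log2 values, with a median of 5.43, as quantile normalisation leaves it. Gata4 itself read 10.4, 10.3 and 10.6 in the livers labelled knockout and 9.90, 9.96 and 9.87 in heterozygous livers, a difference of 0.51 (SE 0.12, adjusted p = 0.0409, limma), so it was higher where the label says it was deleted. The sources used here do not say where the probes lie relative to the floxed part, and if they lie outside it they check nothing about the labels. Xist read 10.3 to 10.7 in all 3 arrays labelled knockout and 10.2 in heterozygous replicate 2, but 3.58 and 3.96 in heterozygous replicates 1 and 3. The Y-linked Uty read 8.18 and 8.15 in those last 2 arrays and at most 4.08 in the other 4. Embryo sex was thus unbalanced between the groups, and differences against heterozygous replicate 2, the same-sex control, are given below for some members. A fit with a sex term gives that same difference. It rests on 1 control array, so it is not a second check, and a call lost under it cannot be assigned to sex.

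Among the 34 members, Plk2 rose and Ccng1 fell in livers labelled knockout, and the other 32 did not pass an adjusted p of 0.05. The 2 calls are 5.88% of the members. Over all 23279 genes 1480 passed, or 6.36%, with 836 higher (3.59%) and 644 lower (2.77%), so the share of members called was close to the background. An unadjusted p under 0.05 was found for 14 of the 34 members and for 5245 of all genes (22.5%), and the counts at an unadjusted p below are to be read against that share. The background counts dim genes too. With the dimmest 50% of genes left out, 8 of 29 members passed an adjusted p of 0.05 (27.6%), against 17.7% of the genes kept. At an adjusted p of 0.1 over all genes, 8 members passed (23.5%), against 11.6% of all genes. They were Plk2, Tnfrsf10b, Cdkn1a and Trp53inp1 on the higher side and Ccng1, Btg2, Bid and Aen on the lower side. In bulk tissue such differences cannot be told apart from a change in the number of cells that carry the transcript, since fewer cells of a type and less RNA per cell give the same value.

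**Figure D1:**
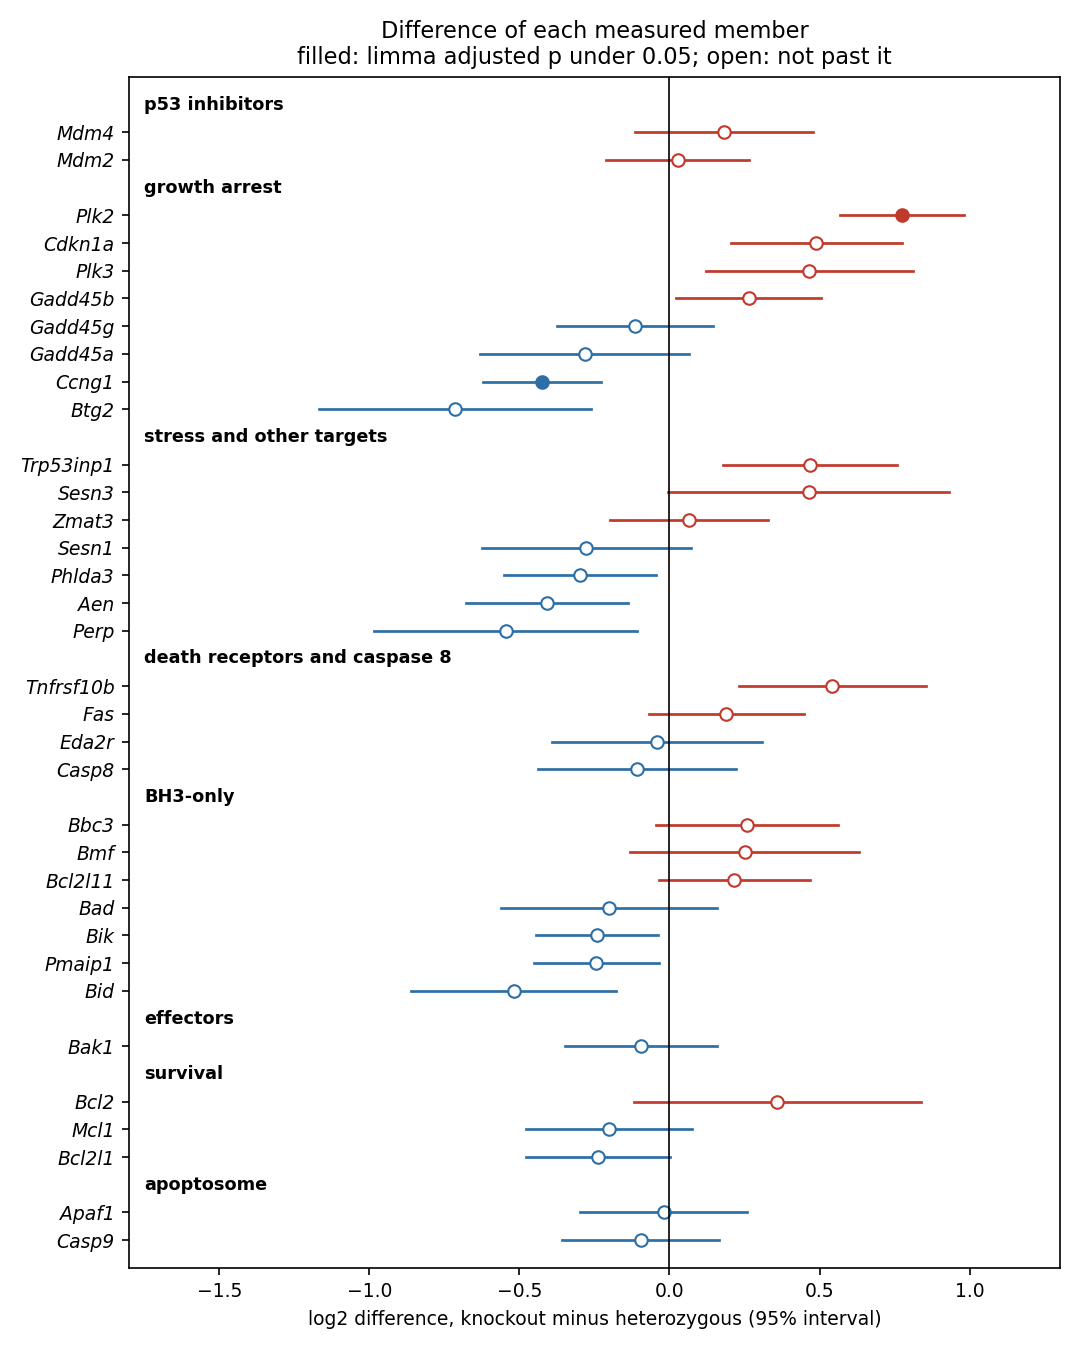
Log2 difference of each measured member, labelled knockout minus heterozygous, with its 95% confidence interval from limma, grouped by role. Plk2 (0.77) and Ccng1 (−0.42) passed an adjusted p of 0.05, and intervals of most BCL2 family genes include 0.

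Of the growth-arrest targets, Plk2, a polo-like kinase of centriole duplication and stress responses, read 8.97, 9.07 and 8.92 in the livers labelled knockout, against 8.16, 8.24 and 8.25 in heterozygous livers. Every knockout-labelled value lay above every heterozygous one. The difference was 0.77 on the log2 scale (SE 0.09, 95% confidence interval 0.57 to 0.98), or 1.71-fold, with an adjusted p of 0.00932. It was 0.75 against the same-sex control, which is also its value in the fit with a sex term, where the call did not hold. Without heterozygous replicate 3 the adjusted p of Plk2 was 0.0536.

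Ccng1, cyclin G1, a p53-induced partner of protein phosphatase 2A that acts on MDM2, moved the other way. It read 9.27, 9.21 and 9.27 in the livers labelled knockout and 9.69, 9.63 and 9.72 in heterozygous livers. The groups did not overlap, and the difference was −0.42 (SE 0.09, 95% confidence interval −0.62 to −0.23, adjusted p = 0.0312, limma), a fall to a level 1.34-fold lower than in heterozygous livers. Leaving out any of the 6 arrays ended the call, with adjusted p between 0.0532 and 0.12. The call did not hold with a sex term either, where the difference was −0.37, as against the same-sex control.

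Cdkn1a, which encodes the cyclin-dependent kinase inhibitor p21, read 8.70, 8.61 and 8.30 in the livers labelled knockout and 8.04, 7.96 and 8.15 in heterozygous livers. All 3 values lay above the heterozygous ones, and the difference of 0.49 (SE 0.12, adjusted p = 0.057) missed the threshold. Btg2, an antiproliferative factor that promotes mRNA deadenylation, had the most negative difference of the members. It read 6.57, 6.70 and 6.60 in the livers labelled knockout and 6.90, 7.36 and 7.77 in heterozygous livers, so the groups did not overlap but the heterozygous arrays were far more spread out (SD 0.07 among knockout-labelled and 0.44 among heterozygous arrays). The difference of −0.71 (SE 0.20) had an adjusted p of 0.0728. Ccng1 and Cdkn1a, the genes with a full p53 element in the windows shown above, thus differed in opposite directions, the first past the threshold and the other not.

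Plk3, a stress-responsive polo-like kinase, read 6.46, 6.002 and 6.55 in the livers labelled knockout and 5.79, 5.84 and 5.97 in heterozygous livers. Its difference of 0.47 (SE 0.15) had an adjusted p of 0.111, and it passed without knockout replicate 2, the lowest array of its group (adjusted p = 0.0259). The 3 Gadd45 genes, stress sensors that bind the kinase MAP3K4, had values on both sides. Gadd45b read 6.95, 6.76 and 6.93 in the livers labelled knockout and 6.57, 6.75 and 6.53 in heterozygous livers, a difference of 0.26 (adjusted p = 0.183) that was 0.12 against the same-sex control. Gadd45a read 8.23, 7.94 and 7.81 in the livers labelled knockout and 8.03, 8.33 and 8.47 in heterozygous livers, and Gadd45g read 7.25, 7.19 and 7.32, against 7.21, 7.33 and 7.57 in heterozygous livers. Both groups overlapped in the last 2 genes, whose differences were −0.28 (adjusted p = 0.328) and −0.11 (adjusted p = 0.64).

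**Figure D2:**
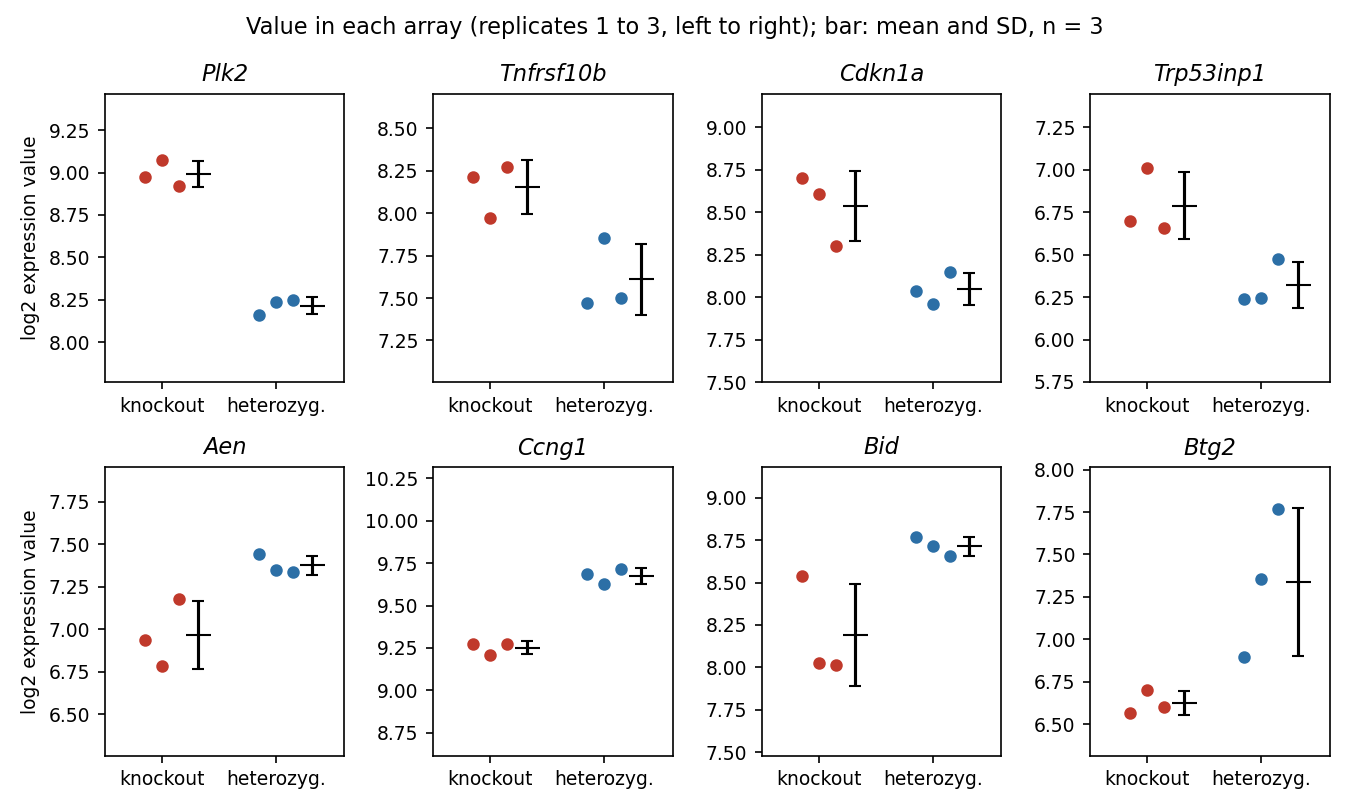
Log2 expression value in each array, with mean and SD, for the 8 members with a limma adjusted p under 0.1. Knockout-labelled arrays are left and heterozygous arrays right. The members were selected by that p, so a separation of the groups is partly built into the selection. All 3 knockout-labelled values lie above every heterozygous one for Plk2, Cdkn1a and Tnfrsf10b, and below every one for Ccng1, Btg2 and Bid.

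The p53 inhibitors showed no call. Mdm2 read 9.13, 9.03 and 9.04 in the livers labelled knockout and 9.06, 8.88 and 9.17 in heterozygous livers, with overlapping groups. Its difference of 0.027 had a 95% confidence interval of −0.21 to 0.26 (adjusted p = 0.924), and it was 0.18 against the same-sex control. Mdm4 read 9.21, 8.98 and 8.79 in the livers labelled knockout and 8.71, 8.95 and 8.79 in heterozygous livers, a difference of 0.18 with an interval of −0.11 to 0.48 (adjusted p = 0.476), which was 0.052 against the same-sex control.

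Among the 7 targets of stress and RNA control, all 7 missed the threshold, 4 of them with an unadjusted p under 0.05. Trp53inp1, a stress protein that promotes p53 activity and autophagy, read 6.70, 7.01 and 6.65 in the livers labelled knockout and 6.24, 6.25 and 6.48 in heterozygous livers. Its groups did not overlap, and the difference was 0.47 (SE 0.13, adjusted p = 0.0685). Aen, an apoptosis-enhancing nuclease, read 6.94, 6.79 and 7.18 in the livers labelled knockout and 7.44, 7.35 and 7.34 in heterozygous livers. Every knockout-labelled value was lower, with a difference of −0.41 (SE 0.12, adjusted p = 0.0818).

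Perp, a tetraspan membrane protein of cell junctions, read 6.44, 5.68 and 6.28 in the livers labelled knockout and 6.83, 6.61 and 6.61 in heterozygous livers. Knockout replicate 2 was the lowest array, and the difference of −0.54 (SE 0.19) had an adjusted p of 0.137. Phlda3, an AKT inhibitor, read 7.49, 7.50 and 7.27 against 7.58, 7.83 and 7.74 in heterozygous livers, a difference of −0.30 (adjusted p = 0.156). The sestrins, which restrain mTORC1, differed in sign. Sesn3 read 8.04, 8.87 and 8.13 in the livers labelled knockout and 7.90, 7.91 and 7.83 in heterozygous livers, where knockout replicate 2 stood far above the rest (difference 0.46, SE 0.20, adjusted p = 0.226). Sesn1 read 7.15, 7.59 and 7.73 in the livers labelled knockout and 7.71, 7.76 and 7.83 in heterozygous livers, with overlap and a difference of −0.28 (adjusted p = 0.338). Zmat3, an RNA-binding zinc finger protein, read 6.42, 6.51 and 6.65 against 6.41, 6.64 and 6.33 in heterozygous livers, a difference of 0.065 that was −0.11 against the same-sex control.

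Among the death receptors and caspase 8, all 4 genes missed the threshold, 1 of them with an unadjusted p under 0.05. Tnfrsf10b, the mouse receptor for TRAIL, read 8.21, 7.97 and 8.27 in the livers labelled knockout and 7.47, 7.85 and 7.50 in heterozygous livers. The groups did not overlap and the difference was 0.54 (SE 0.13, adjusted p = 0.0544), but it was 0.30 against heterozygous replicate 2, the same-sex control and the highest of its group. Fas read 4.32, 4.13 and 4.50 against 4.16, 4.10 and 4.11 in heterozygous livers (difference 0.19, adjusted p = 0.382). Eda2r, an X-linked receptor for ectodysplasin A2, read 3.58, 3.34 and 3.47 against 3.17, 3.68 and 3.66, a difference of −0.04 that was −0.22 against the same-sex control. Fas and Eda2r were both dim, with every value below the array median of 5.43. Casp8 read 10.5, 10.3 and 10.3 in the livers labelled knockout and 10.6, 10.2 and 10.6 in heterozygous livers, a difference of −0.11 that was 0.18 against the same-sex control.

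The BH3-only genes start the mitochondrial pathway, and all 7 measured members missed the threshold, 3 of them with an unadjusted p under 0.05. Bid, whose product links caspase 8 to mitochondria, read 8.54, 8.02 and 8.02 in the livers labelled knockout and 8.77, 8.71 and 8.66 in heterozygous livers. The groups did not overlap, and the difference of −0.52 (SE 0.15, 95% confidence interval −0.86 to −0.18) had an adjusted p of 0.0798. Without knockout replicate 1, the array nearest the controls, its adjusted p was 0.0176.

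Bik, a BH3-only protein of the endoplasmic reticulum, read 5.27, 5.27 and 5.37 in the livers labelled knockout and 5.51, 5.52 and 5.61 in heterozygous livers. Pmaip1, which encodes NOXA, read 4.23, 4.31 and 4.15 against 4.53, 4.44 and 4.45 in heterozygous livers. In both genes every knockout-labelled value was lower, by 0.24 on average, with adjusted p of 0.151 and 0.155. Bbc3, which encodes PUMA, read 4.70, 4.70 and 4.84 in the livers labelled knockout and 4.53, 4.23 and 4.71 in heterozygous livers, a difference of 0.26 (adjusted p = 0.305) that was 0.52 against the same-sex control. The 2 p53-induced BH3-only genes therefore had differences of opposite sign, neither past the threshold. Both were dim, with every value below the array median of 5.43, so these signs carry little weight.

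The remaining BH3-only genes overlapped between groups. Bcl2l11, which encodes BIM, read 7.84, 7.52 and 7.75 in the livers labelled knockout and 7.42, 7.54 and 7.50 in heterozygous livers (difference 0.22, adjusted p = 0.301). Bmf, whose product is bound to the cytoskeleton in healthy cells, read 6.28, 6.59 and 6.46 against 6.49, 6.23 and 5.85 in heterozygous livers, with a difference of 0.25. Bad, a BH3-only protein controlled by survival-factor signalling, read 5.87, 5.96 and 5.54 against 6.16, 5.71 and 6.10, a difference of −0.20 that was 0.076 against the same-sex control.

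The pore former Bak1 read 9.18, 8.88 and 8.92 in the livers labelled knockout and 9.17, 9.01 and 9.08 in heterozygous livers, a difference of −0.10 with overlapping groups. Among the survival genes, Bcl2 read 7.96, 8.67 and 7.93 in the livers labelled knockout and 8.07, 7.67 and 7.73 in heterozygous livers. Knockout replicate 2 was the highest array, the other two of its group lay within the heterozygous range, and the difference was 0.36 (SE 0.21, adjusted p = 0.37), or 0.52 against the same-sex control. Bcl2l1, which encodes BCL-xL, read 7.67, 7.76 and 7.45 against 7.86, 7.88 and 7.86 in heterozygous livers. All 3 knockout-labelled values were lower, but the 95% confidence interval of the difference of −0.24 reached 0.0032 (adjusted p = 0.228). Mcl1 read 9.50, 9.80 and 9.89 against 9.97, 9.96 and 9.87 in heterozygous livers, a difference of −0.20 (adjusted p = 0.385).

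Both apoptosome genes overlapped between groups. Apaf1 read 8.54, 8.29 and 8.21 in the livers labelled knockout and 8.21, 8.43 and 8.47 in heterozygous livers, a difference of −0.02. Casp9, the initiator caspase that binds it, read 7.53, 7.34 and 7.27 against 7.35, 7.63 and 7.46 in heterozygous livers, a difference of −0.10 that was −0.25 against the same-sex control.

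Set against each other, the p53 targets and the apoptosis regulators both had medians near that of all genes, and the targets were more spread out. The 19 targets had a median log2 difference of 0.027, with 10 positive and 9 negative, and a median absolute difference of 0.41. The 14 regulators had a median of −0.10, with 4 positive and 10 negative, and a median absolute difference of 0.23. Over all genes, dim ones included, the median was −0.0078 and the median absolute difference 0.13. Against the same-sex control the medians were −0.072 for targets and −0.052 for regulators, so the sign of the target median changed with the control used. The medians of single arrays overlapped between groups, at 0.082, −0.0078 and −0.0039 for targets in the livers labelled knockout and −0.057, −0.0013 and 0.041 in heterozygous livers. Those of regulators were 0.055, −0.116 and −0.171 in the livers labelled knockout and 0.048, −0.012 and −0.0086 in heterozygous livers. Only knockout replicate 1 was not below every heterozygous array there.

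Without any test, 12 of 19 targets (63.2%) had groups that did not overlap, 7 higher and 5 lower, and 4 of 14 regulators (28.6%), all lower. Over all genes this held for 27.3%, 13% higher and 14.3% lower, so the regulators were near that background. It includes dim genes, and the share over bright genes alone was not computed. Among all 34 members it held for 16 (47.1%), 7 higher and 9 lower. The targets apart on the higher side were Plk2, Tnfrsf10b, Cdkn1a, Trp53inp1, Plk3, Sesn3 and Gadd45b, and on the lower side Ccng1, Btg2, Aen, Perp and Phlda3. The regulators were Bid, Bik, Pmaip1 and Bcl2l1.

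**Figure D3:**
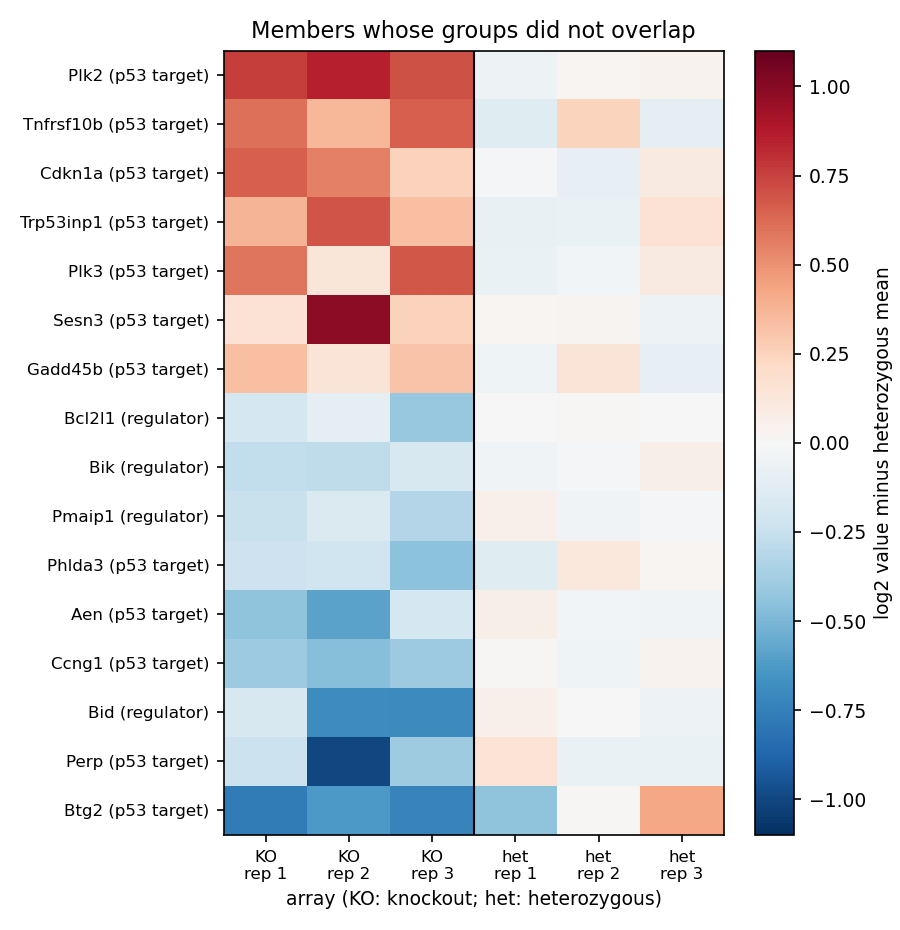
Log2 value minus the heterozygous mean in each array, for the members whose groups did not overlap, with knockout-labelled arrays left and heterozygous arrays right. The members were selected for that trait, so the separation shown follows from the selection. They are 63.2% of the p53 targets and 28.6% of the apoptosis regulators, against 27.3% of all genes, dim ones included.

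Other genes of the pathway, taken from separate lists, were called in both directions. These lists were also chosen with earlier results of these data known, so their shares are descriptions only. Of 28 further p53 targets 3 were called higher and 3 lower (21.4%), against 6.36% of all genes. Ddit4, which encodes an inhibitor of mTORC1, had a difference of 1.80 (adjusted p = 0.0074), and Trp53i11, a p53-inducible membrane protein gene, had one of 1.27 (adjusted p = 0.00979). Trp53i11 read 9.82, 10.2 and 9.63 in the livers labelled knockout and 8.67, 8.46 and 8.69 in heterozygous livers. Abhd4 was also higher (0.43, adjusted p = 0.0395), while Pidd1, a p53-induced death domain protein gene, was lower (−0.43, adjusted p = 0.0355), as were Ppm1d, which encodes a phosphatase that dampens p53 signalling (−0.54, adjusted p = 0.0387), and Rps27l (−0.43, adjusted p = 0.039). With a sex term, which rests on 1 control array, the differences were of similar size. They were 1.82 for Ddit4, 1.42 for Trp53i11, 0.48 for Abhd4, −0.45 for Pidd1, −0.53 for Ppm1d and −0.44 for Rps27l. None of these 6 calls held with that term. Pidd1 and Abhd4 also lost theirs whichever array was left out, Ppm1d without any array but heterozygous replicate 1, Rps27l without any but knockout replicate 2, and Trp53i11 without heterozygous replicate 3 (adjusted p = 0.0536).

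Of 20 genes of p53 activation and turnover, 1 was called (5%, against 6.36% of all genes), Trp53bp2, which encodes the p53-binding protein ASPP2 (0.70, adjusted p = 0.0138). Its call was lost with a sex term (difference 0.70) and without heterozygous replicate 3 (adjusted p = 0.0684). Trp53bp1, which encodes a p53-binding protein of DNA break repair, had the next smallest p, with a difference of 0.45 (adjusted p = 0.0928). Of 18 further caspase and apoptosis machinery genes 2 were called (11.1%, against 6.36% of all genes), both lower: Casp1, the inflammatory caspase (−1.05, adjusted p = 0.0404), and Dffb, the apoptotic DNase (−0.56, adjusted p = 0.0461). Neither call held with a sex term, where Casp1 had a difference of −0.60 and Dffb one of −0.55. Dffb lost its call whichever array was left out, and Casp1 lost its own without knockout replicate 2 or 3 or heterozygous replicate 1 or 3 (adjusted p 0.0691 to 0.146). The 13 further BCL2 family genes had no call, 1 of them with an unadjusted p under 0.05 in limma, and Bnip3, a mitochondrial BH3-like protein gene, came closest at 1.102 (adjusted p = 0.0509), followed by Bcl2l12 at −0.21 (adjusted p = 0.264). The 15 death ligands, receptors and adaptors had no call, 5 with an unadjusted p under 0.05, and the smallest p were those of Tnfrsf1b at −0.75 (adjusted p = 0.0553) and Tnfrsf21 at −0.37 (adjusted p = 0.0948).

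**Figure D4:**
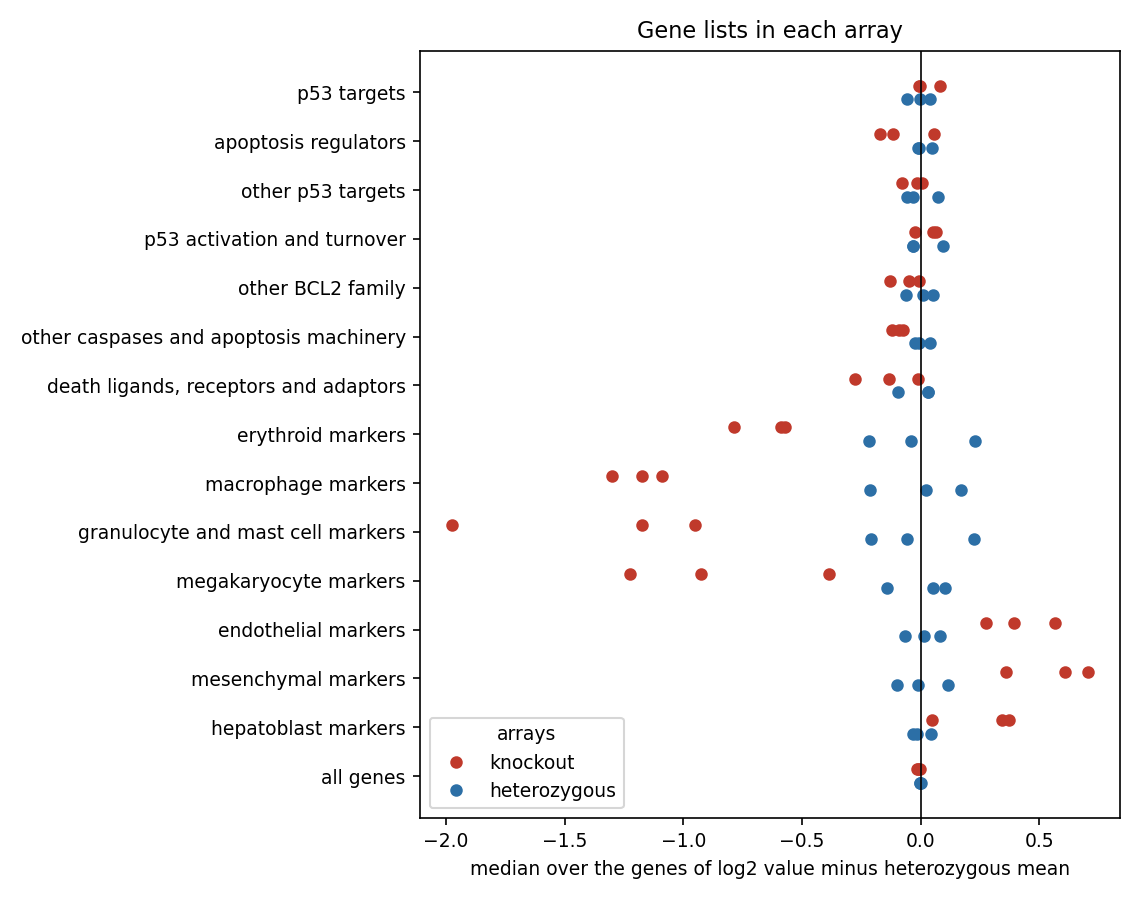
Median log2 deviation from the heterozygous mean for each list of pathway genes and cell type markers, in each array. Macrophage, granulocyte and mast cell, megakaryocyte and erythroid markers are low in the livers labelled knockout, and endothelial and mesenchymal markers high. Hepatoblast medians are also higher there, but only narrowly in knockout replicate 2 (0.0475, against 0.042 in heterozygous replicate 1).

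Markers of blood cells moved with the group beside these genes. The counts that follow are of markers past an adjusted p of 0.05, which 3.59% of all genes passed on the higher side and 2.77% on the lower side. Of 10 macrophage markers 9 passed as lower and all 10 had negative differences, with a median of −1.22, and their summed log2 level was 9.98 to 10.3 in the livers labelled knockout and 10.9 to 11.3 in heterozygous livers. Of 10 granulocyte and mast cell markers 8 passed as lower and 9 were negative (median −1.38, summed level 9.52 to 10.5, against 11.3 to 11.9). Of 8 megakaryocyte markers 4 passed as lower and all 8 were negative (median −0.82, summed level 11.9 to 12.9, against 13.04 to 13.4), and of 8 erythroid markers 3 passed as lower and all 8 were negative (median −0.68, summed level 13.0 to 13.2, against 13.5 to 14.02). Of 10 endothelial markers 4 passed as higher and 9 were positive (median 0.41, summed level 12.3 to 12.6, against 11.9 to 12.1). Of 10 mesenchymal markers 5 passed as higher and all 10 were positive (median 0.56, summed level 13.7 to 13.8, against 13.04 to 13.2). Of 10 hepatoblast markers 1 passed as higher and 7 were positive (median 0.28), with overlapping summed levels of 15.05 to 15.2, against 15.06 to 15.1. A summed level is carried mostly by its brightest markers. The groups did not overlap for 4 of these 10 markers, all higher (40%, against 13% of all genes). No marker can read 0, since log2 array values have no true zero, and the part of these markers in the differences of the members was not tested.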

How the data were processed

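The deposited values are log2 expression values that the authors made with RMA of unstated version, per the submitters' processing notes. The sources used here give neither chip definition nor build. Of 24479 features 23281 were named, 23156 by the RefSeq GRCm38.p6 gene table, and 1198 stayed unnamed. Duplicate names kept the brighter feature. Members and lists were chosen with earlier results of these data known. Members were described by role, and of the other lists the genes past the threshold and otherwise those with the 2 smallest p are named, except that cell type marker lists are given as counts and summed levels only. Differences were fitted with limma 3.58.1 in R 4.3.3 on 6 arrays (4 residual and 4.06 prior degrees of freedom), with Benjamini-Hochberg adjustment over 23279 genes and a threshold of 0.05. Alternatives covered the variance model, normalisation, dim genes, array weights, embryo sex, the replicate block and leaving out arrays. The fit was tested on simulated data. The number of arrays limits precision. Promoters were RefSeq GRCm38.p6 windows. Figures were drawn in Python 3.11.15 with pandas 2.3.3 and matplotlib 3.10.9.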

Additional observations from a re-analysis of the deposited data

How the results depend on the processing

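Members past the threshold numbered 4 with a variance trend (11.8%, against 7.9% of all genes) and 4 with array weights (11.8%, against 7.11%). They numbered 8 with the dimmest 50% of genes left out (8 of 29, or 27.6%, where 2063 of 11639 genes passed, or 17.7%). With the replicate number as a block 1 passed (2.94%, against 2.95%), and at an adjusted p of 0.1 it was 8 (23.5%, against 11.6%). With each array left out 0 to 2 passed. With a sex term, which rests on 1 control array, no member and few genes passed. Genes past the threshold numbered 686 with the replicate block, 2700 at an adjusted p of 0.1 and 41 to 1395 with each array left out. The replicate numbers did not pair the arrays: correlations of same-numbered deviations were −0.0518, −0.011 and −0.0767. With the block, Ccng1 had an adjusted p of 0.0713. The median of p53 targets was −0.0716 with a sex term, the same value as against the same-sex control, and −0.0059 without knockout replicate 1. The regulators' median of −0.103 was −0.0518 with a sex term, −0.181 without knockout replicate 1, −0.0615 without knockout replicate 3 and −0.16 without heterozygous replicate 2. With Bbc3, Pmaip1 and Apaf1 among the targets, the median of targets was 0.0036, and that of regulators −0.109. Signs turned for Eda2r with array weights (0.0013), and for Zmat3 (−0.112), Bad (0.0758) and Casp8 (0.181) with a sex term. Leaving out each array gave −0.0505 to 0.0911 for Mdm2, −0.114 to 0.0479 for Apaf1 and −0.208 to 0.0491 for Eda2r. In all, 6 of 34 members changed sign under at least 1 of 17 alternatives. The cause was not tested.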
